A study of Mus musculus with 8 samples.

Results

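Rpl3l and Rpl3 encode 2 forms of the same ribosomal protein, and their messenger RNA was followed in whole hearts of female mice, either wild-type (WT) or with a gene knocked out in muscle (KO). They were taken as every probe set (a group of short probes that together report 1 transcript or a few) whose platform symbol includes either name. This gave 3 probe sets, 1 of Rpl3l and 2 of Rpl3, among 45037 probe sets, and the pair stands among 18194 genes. The pair was chosen by its measured KO minus WT difference at 10 weeks in these same arrays, so its values over the 4 groups are a description, with no test. The 4 groups were WT and KO hearts at 4 weeks and WT and KO hearts at 10 weeks of age, with 2 mice per group and 1 Affymetrix mouse array per heart. The KO mice carry a conditional gene deletion driven by MCK, the muscle creatine kinase regulatory sequence, which acts in heart and skeletal muscle, so the other cells of a KO heart should keep the gene. The alleles that the WT mice carry are not given in the sources used here. All mice of one age came as littermates, so age and litter cannot be told apart, and no processing day is given. The p-values below set each difference between groups against the spread of arrays within groups, which the model draws towards that of all genes.

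The protein of Rpl3 is a core part of the large ribosomal subunit and reaches close to the centre where peptide bonds form. Nearly all cells use Rpl3, while Rpl3l is restricted to heart and skeletal muscle, where it takes the place of Rpl3 in many ribosomes as the muscle matures after birth. Mice that lack Rpl3l have been reported to make more Rpl3 in the heart. The arrays measure the messenger RNA of both genes in the whole heart, not the protein in muscle ribosomes.

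The labelled tissue matched its markers. All 12 cardiomyocyte markers were measured, with mean log2 levels of 10.00 to 14.25 over the 8 arrays, while 9 of 12 skeletal muscle markers had a mean below log2 6. Array medians lay between 34.3 and 37.4 on the linear intensity scale. On the second principal component, which carried 24.3% of the variance, replicate 1 of the 10-week WT hearts stood at -43.3 and the other arrays between -4.18 and 13.9. Values without it are given for Rpl3l, and values or adjusted p-values for a named gene where its call was lost or its value moved by over 1.5 times.

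Rpl3l was reported by 1 probe set (1449398_at), which names no other gene and was designed on a RefSeq transcript of Rpl3l. Its intensity, on the linear scale, was 1537 and 1475 in the 4-week WT hearts. The 4-week KO hearts read 1293 and 1257. The 10-week WT hearts read 1717 and 1299, the widest pair, and the higher value was on the array that stood apart. The 10-week KO hearts read 144 and 158, far below each of the other 6 arrays. Group means were 1506 ± 44.0 in 4-week WT, 1275 ± 25.3 in 4-week KO, 1508 ± 296 in 10-week WT and 151 ± 9.42 in 10-week KO (SD, n = 2 per group).

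At 10 weeks the KO level of Rpl3l was thus 10.1% of the WT level, a log2 difference of -3.31 ± 0.15 (SE), or 9.91-fold. Among all genes this was the 4th lowest KO minus WT difference. At 4 weeks the KO level was 84.6% of WT, a log2 difference of -0.24 ± 0.15. Both KO arrays lay below both WT arrays at each age, which held for 23.5% of all genes at 10 weeks and for 17.5% at 4 weeks. The WT groups of the 2 ages differed by -0.01 ± 0.15 on the log2 scale, well within the spread of the 10-week pair. In order of level, 10-week WT, 4-week WT and 4-week KO were neighbours whose order is not settled. The higher 4-week KO array, at 1293, was only just under the lower 10-week WT array, at 1299. The 10-week KO group came last by a wide gap. Even there the Rpl3l probe set was brighter than 82.4% of all probe sets by group mean, against 98.1% in 10-week WT. Without the 10-week WT array that stood apart the difference was -3.11, and without the other 10-week WT array it was -3.51.

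**Figure D1:**
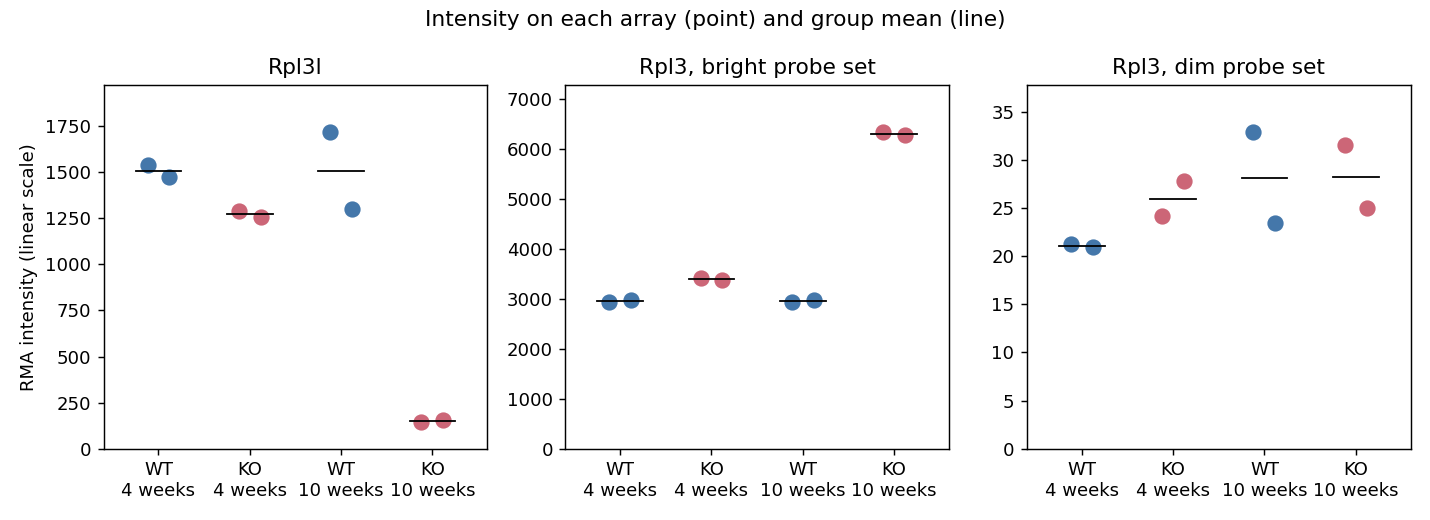
RMA intensity on the linear scale (y axis, starting at 0 in each panel) for the Rpl3l probe set and both Rpl3 probe sets, with 1 point per array and a line at the mean of each group of 2 (x axis). The 10-week KO hearts read 144 and 158 for Rpl3l and 6336 and 6286 for the bright Rpl3 probe set, apart from the other 6 arrays in both panels, while the dim Rpl3 probe set shows no such pattern.

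The RefSeq table of promoters (GRCm38.p6) held 2 annotated starts for Rpl3l, and Rpl3 was not matched. The 250 bases before each start are shown because Rpl3l carries the largest difference of the pair, with matches to 6 motifs of muscle and general promoters in capitals, searched on both strands. The first start lies at the outer end of the gene (chr17:24727576-24727825, plus strand), and the second lies within the gene (chr17:24732435-24732684, plus strand).
Rpl3l, first start: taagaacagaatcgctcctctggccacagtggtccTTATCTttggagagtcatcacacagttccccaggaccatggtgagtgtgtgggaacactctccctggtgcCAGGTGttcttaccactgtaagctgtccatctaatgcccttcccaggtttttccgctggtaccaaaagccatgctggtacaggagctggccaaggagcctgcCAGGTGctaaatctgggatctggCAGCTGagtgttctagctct
Rpl3l, second start: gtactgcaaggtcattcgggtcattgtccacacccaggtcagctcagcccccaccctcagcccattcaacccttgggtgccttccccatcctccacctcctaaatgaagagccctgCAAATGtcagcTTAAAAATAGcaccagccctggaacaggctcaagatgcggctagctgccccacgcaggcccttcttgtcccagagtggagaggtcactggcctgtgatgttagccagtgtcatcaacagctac
The first window held 3 matches to the E-box (CANNTG), the site of basic helix-loop-helix factors, from 145, 43 and 20 bases before the start. It also held 1 match to a GATA site (AGATAA, on the minus strand) from 215 bases before it. The second window held 1 E-box, from 134 bases before the start, and 1 match to the MEF2 consensus, the site of a family of muscle transcription factors, from 123 bases before it. None of these motifs overlapped, and neither window matched the MCAT box (spelled CATTCC), the TATA box of general promoters (spelled TATAAA) or the CArG consensus of serum response factor. Of 32807 windows of this length over all annotated starts, 66.2% held an E-box, 9.99% the GATA letters, 2.92% a MEF2 match, 12.6% the MCAT letters, 12.4% the TATA box and 1.47% a CArG match. These are matches of letters only, and the arrays do not show which start was used.

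Rpl3 was reported by a bright probe set (1449323_a_at) and a dim one (1438527_at). The bright one was designed on a RefSeq transcript of Rpl3, but the platform also lists the pseudogene Gm12816 for it. The dim one lists Gm12816 and a further pseudogene, Gm5879. Signal from these copies cannot be told apart from that of Rpl3.

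The bright Rpl3 probe set read 2947 and 2976 in 4-week WT and 3424 and 3384 in 4-week KO. It read 2941 and 2985 in 10-week WT and 6336 and 6286 in 10-week KO. The arrays of a group were close together, so that the 4-week KO pair lay above all 4 WT arrays and the 10-week KO pair above all other arrays. Group means were 2961 ± 20.6, 3404 ± 28.5, 2963 ± 30.9 and 6311 ± 35.2 in that order (SD, n = 2 per group). At 10 weeks the KO level was 213% of WT, a log2 difference of 1.09 ± 0.11 (SE), and this was the 275th highest of the 18194 genes. At 4 weeks it was 115% of WT, a log2 difference of 0.20 ± 0.11. KO arrays lay above WT arrays without overlap in 23.7% of all genes at 10 weeks and in 19.4% at 4 weeks. The SE of each value is that of the model, whose spread is drawn towards that of all genes, and is larger than the spread of these arrays alone.

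The WT groups of the 2 ages overlapped for Rpl3, with a difference of 0.00081 ± 0.11, so the order of the groups ran from WT of either age to 4-week KO to 10-week KO. For the KO hearts alone, 10 minus 4 weeks was -3.08 for Rpl3l and 0.89 for Rpl3. Both 10-week KO arrays lay below both 4-week KO arrays for Rpl3l, as in 25.5% of all genes, and above them for Rpl3, as in 32.2%. By limma 10.5% of all genes were called between the KO ages and 0.115% between the WT ages. WT arrays of the 2 ages lay apart in 31.2% of genes (higher at 10 weeks) and 23.8% (lower), and Rpl3l and Rpl3 were in neither share. The KO minus WT difference of 10 weeks less that of 4 weeks was -3.07 for Rpl3l and 0.89 for Rpl3. Leaving out any 1 array kept the 10-week difference between 1.08 and 1.10.

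The dim Rpl3 probe set did not show the 10-week difference. It read 21.3 and 21.0 in 4-week WT, 24.2 and 27.8 in 4-week KO, 32.9 and 23.4 in 10-week WT and 31.6 and 25 in 10-week KO. The 10-week groups overlapped, with a log2 difference of 0.02 ± 0.18, and the 4-week difference was 0.30 ± 0.18. This probe set was brighter than only 36.1% to 42.5% of all probe sets, depending on the group. The difference in Rpl3 at 10 weeks therefore rests on 1 probe set, and with the mean of both it was 0.55.

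The balance between both genes was followed within each array, as log2 of Rpl3l minus log2 of the bright Rpl3 probe set. Probe sets bind with different strength, so this quantity is read only as unequal change and was set to 0 at the mean of 4-week WT. The 4-week WT arrays stood at 0.04 and -0.04, and the 10-week WT arrays at 0.20 and -0.22. The 4-week KO arrays stood at -0.43 and -0.45, and the 10-week KO arrays at -4.48 and -4.34. KO minus WT was -4.40 ± 0.16 at 10 weeks, a 21.1-fold shift towards Rpl3, and -0.44 ± 0.16 at 4 weeks (SE from the spread within the 4 groups). The 10-week shift is the sum of -3.31 for Rpl3l and 1.09 for Rpl3 with its sign turned, so Rpl3l made up the larger share. At 4 weeks the shares were close, with -0.24 for Rpl3l and 0.20 for Rpl3. The balance of the WT hearts differed by -0.01 ± 0.16 between the ages, so 10-week WT arrays lay on both sides of the 4-week ones.

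**Figure D2:**
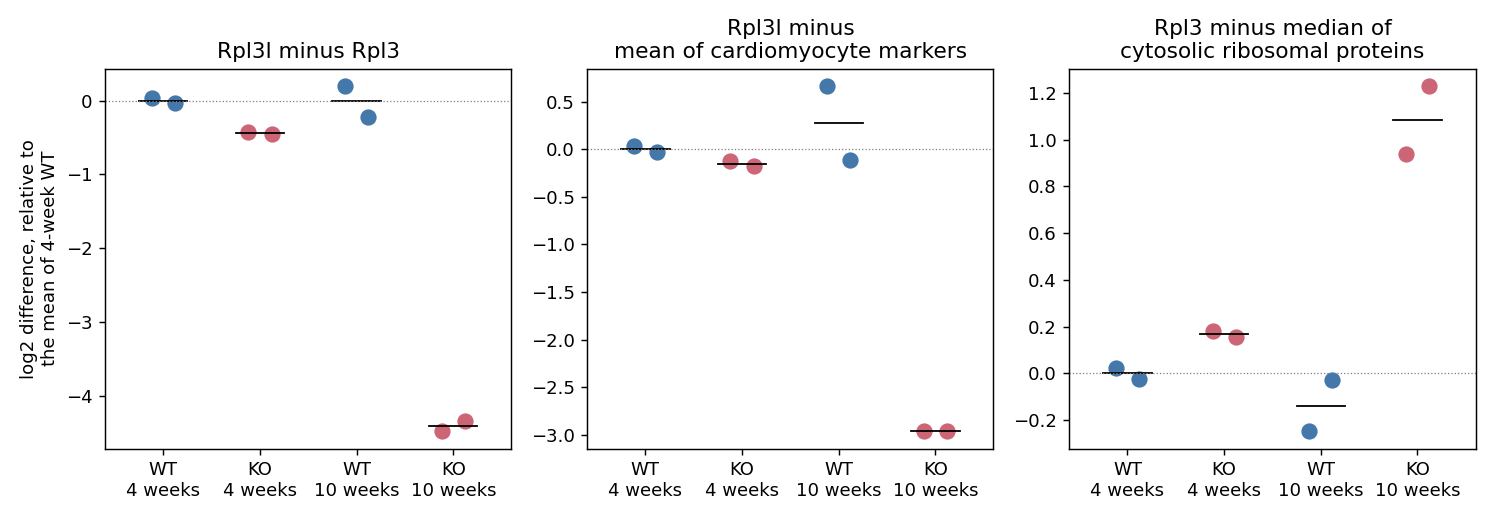
Within-array differences on the log2 scale, relative to the mean of the 4-week WT arrays (y axis), with 1 point per array and a line at the group mean (x axis, 2 arrays per group). The 10-week KO arrays are at -4.48 and -4.34 for Rpl3l minus Rpl3, near -2.96 for Rpl3l minus the mean of 12 cardiomyocyte markers, and at 0.94 and 1.23 for Rpl3 minus the median of 44 other cytosolic ribosomal proteins.

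In whole hearts, fewer cells of a type and less RNA per cell cannot be told apart, so Rpl3l was also set against 12 cardiomyocyte markers. The summed intensity of the markers was 119500 to 141100 in 10-week WT and 118600 to 130000 in 10-week KO. Their median log2 difference, KO less WT, was -0.02, with 3 of 12 lower and 1 higher in limma, at an adjusted p (Benjamini-Hochberg, all genes) under 0.05. The background was 6.89% of genes lower and 5.19% higher. Rpl3l minus the mean of the markers was -3.23 ± 0.28 in KO minus WT at 10 weeks and -0.15 ± 0.28 at 4 weeks. Without the 10-week WT array that stood apart the 10-week value was -2.84, and without the other 10-week WT array it was -3.62.

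Markers of other cells moved at 10 weeks too, and their part in the Rpl3 result was not tested. Of 10 fibroblast markers 7 were higher and 1 lower, and their summed intensity was 18400 to 19530 in 10-week KO against 8671 to 10350 in 10-week WT. Of 10 macrophage markers 4 were higher, with a sum of 7431 to 9318 against 5200 to 5989. Of 8 endothelial markers 1 was higher and 0 lower, but their median difference was -0.16. Of 5 smooth muscle markers 1 was higher and 0 lower, with a median of 0.26. Of all genes 5.19% were called higher and 6.89% lower. Of 7 atrial markers 1 was higher and 2 lower at 10 weeks, and their sum at 4 weeks was 13780 to 29410 in KO and 6718 to 9844 in WT. At 4 weeks 0 of the 7 atrial markers were called in limma, 7 had an unadjusted p under 0.05, and their median difference was 1.27. Their part in the 4-week values of Rpl3l and Rpl3 was not tested. Of 6 liver markers measured 0 were called in limma (1 at an unadjusted p under 0.05), with a sum of 246 to 372 in 10-week KO and 539 to 4871 in 10-week WT. The summed skeletal muscle markers, whose tissue also makes Rpl3l, were at 505 to 556 in 10-week WT and 374 to 396 in 10-week KO. Their sum at 4 weeks was 776 to 798 in WT and 651 to 691 in KO. At 10 weeks 2 of 12 were lower, Mybpc2 (-1.73) and Casq1 (-0.98), and 1 was higher, Tnnt3 (0.69). The median difference of the 12 was -0.215. At 4 weeks the fibroblast sum was 14290 to 16700 in KO and 13010 to 15270 in WT, and 0 of the markers of any list were called.

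Other cytosolic ribosomal proteins, which with Rpl3 build the ribosome, had smaller differences. Of 79 listed proteins 44 were measured by a probe set of 1 gene. At 10 weeks 1 was higher, Rpl4, a large-subunit protein, by 0.63 ± 0.15 on the log2 scale (limma adjusted p = 0.021). The acidic stalk protein Rplp2 was the 1 called lower, by 0.64 ± 0.12 (adjusted p = 0.00713). Over all genes 5.19% were called higher and 6.89% lower. The call of Rpl4 was lost without either 4-week WT array (adjusted p = 0.0513 each), 10-week WT replicate 1 (0.0827) or either 10-week KO array (0.0626 and 0.125), and that of Rplp2 with only the 10-week groups in the fit (0.0562). Differences of the 44 ran from -0.64 to 0.63 with a median of -0.15, against a median of 0.0048 over all genes. By its bright probe set Rpl3, at 1.09, was above all 44. That rank rests on this set, since the mean of both Rpl3 probe sets, at 0.55, lay below Rpl4, and the dim set read 0.02. Of the 22 small-subunit proteins among them 0 were called in limma, and 4 had an unadjusted p under 0.05. Rpl3 minus the median of the 44 was 1.22 ± 0.13 in KO minus WT at 10 weeks and 0.17 ± 0.13 at 4 weeks. At 4 weeks Rpl3 was not at the top, since Rpl12 read 0.22 and Rpl3 0.20. Rpl3 itself was named through its probe set's accession. Naming others the same way added 17 proteins, and some of the 44 changed to a brighter probe set of several genes. At 10 weeks Rpl12 then moved from 0.33 to -0.06 and Rps6 from -0.38 to 0.04. By its bright set Rpl3 was above all 61, with a median of -0.15 for the 61.

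**Figure D3:**
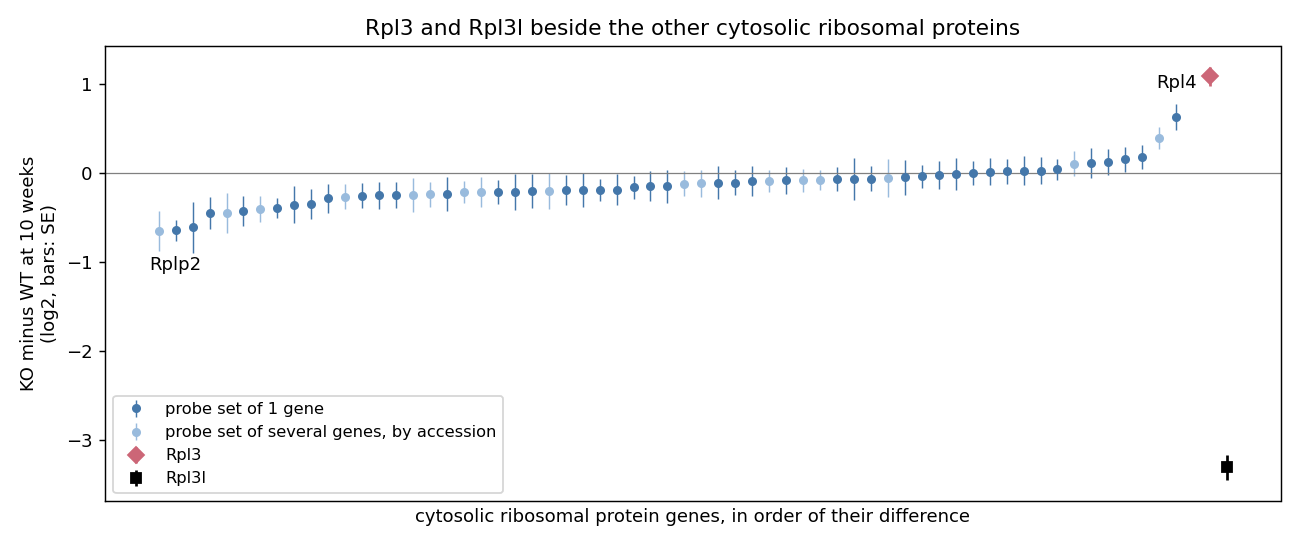
KO minus WT difference at 10 weeks on the log2 scale, with SE bars (y axis), for 61 cytosolic ribosomal protein genes in order of that difference (x axis), with Rpl3 and Rpl3l at the right. Genes marked as probe set of 1 gene have such a set, but some are drawn by a brighter set of several genes. The genes span -0.65 to 0.63, with Rpl4 highest, while Rpl3, by its bright probe set only, is at 1.09 and Rpl3l at -3.31.

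Other paralogs of ribosomal proteins went both ways. Of 7 listed, 5 were measured, with 1 called higher (background 5.19% of genes) and 1 lower (6.89%) at 10 weeks. Rpl7l1, a relative of Rpl7 with a role in ribosome assembly, was lower in 10-week KO by 0.94 ± 0.14 (limma adjusted p = 0.00295), and with the mean of its probe sets the difference was -0.51 (0.0165). Rps4l, a relative of Rps4x, was higher by 0.64 ± 0.17 (adjusted p = 0.0418), a call that was lost without any 1 array other than 10-week KO replicate 1 (adjusted p = 0.0714 to 0.223), with a value of 0.36 without KO replicate 2. The median of the 5 was -0.28.

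Factors that assemble ribosomes were higher at 10 weeks in a part of their list. Of 59 measured, 17 were higher (background 5.19% of genes) and 2 lower (6.89%), with a median of 0.29. Nop58, a core protein of box C/D small nucleolar particles, rose from log2 4.31 and 5.10 in WT to 6.11 and 6.19 in KO, a difference of 1.44 ± 0.22 (limma adjusted p = 0.00282). Gnl3, or nucleostemin, a nucleolar GTPase, rose by 1.43 ± 0.16 (0.000818), Rrp12, an export factor of pre-ribosomes, by 1.41 ± 0.21 (0.00263) and nucleolin, Ncl, by 1.40 ± 0.23 (0.00431). Emg1, an RNA methyltransferase of the small subunit, and Polr1d, shared by RNA polymerases I and III, fell by 0.94 and 0.93. Both were named because they were the only ones called lower. Grwd1, the chaperone that carries new Rpl3 protein to the nucleolus, read 6.78 and 6.87 in WT and 7.04 and 7.04 in KO, a difference of 0.22 ± 0.11 that did not pass (adjusted p = 0.292). With the mean of its 3 probe sets it was 0.38 and passed (0.0403). The number higher was 10 without either 4-week WT array or without 10-week WT replicate 1, 26 without 10-week WT replicate 2 and 6 without 10-week KO replicate 2, and the number lower was 1 without 10-week KO replicate 1. For Nop58, Gnl3, Rrp12 and Ncl the lowest of the 8 values was on the 10-week WT array that stood apart. Without it the differences were 1.05, 1.24, 1.10 and 1.04. With the mean of its probe sets Ncl was at 0.83 (0.0223).

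Translation factors also moved in both directions. Of 39 measured, 10 were higher and 5 lower in 10-week KO, with a median of 0.21, against 5.19% and 6.89% of all genes. Eif4ebp1, which holds back the cap-binding factor, rose by 1.51 ± 0.14 (limma adjusted p = 0.000253). The subunits Eif3c and Eif3a of initiation factor 3 rose by 1.47 ± 0.23 (0.00314) and 1.3 ± 0.26 (0.0111), and Myc, a driver of ribosome production, by 1.33 ± 0.14 (0.000516). Without the 10-week WT array that stood apart Eif3a read 0.80 (0.00615). The call of Eif3a was lost without 10-week KO replicate 1 (adjusted p = 0.059) or 2 (0.0727). Lower were Eef1d, Eif4e, Eif3m, Eif3k and Eif4a2, by 0.49 to 0.67. The number lower was 2 without either 4-week WT array, 3 without 10-week WT replicate 1, 1 without 10-week KO replicate 1 and 0 without KO replicate 2, and the number higher was 17 without 10-week WT replicate 2. With quantile normalization repeated 1 was lower, and with shared sequence dropped, trend and robust settings or array weights 2 were.

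**Figure D4:**
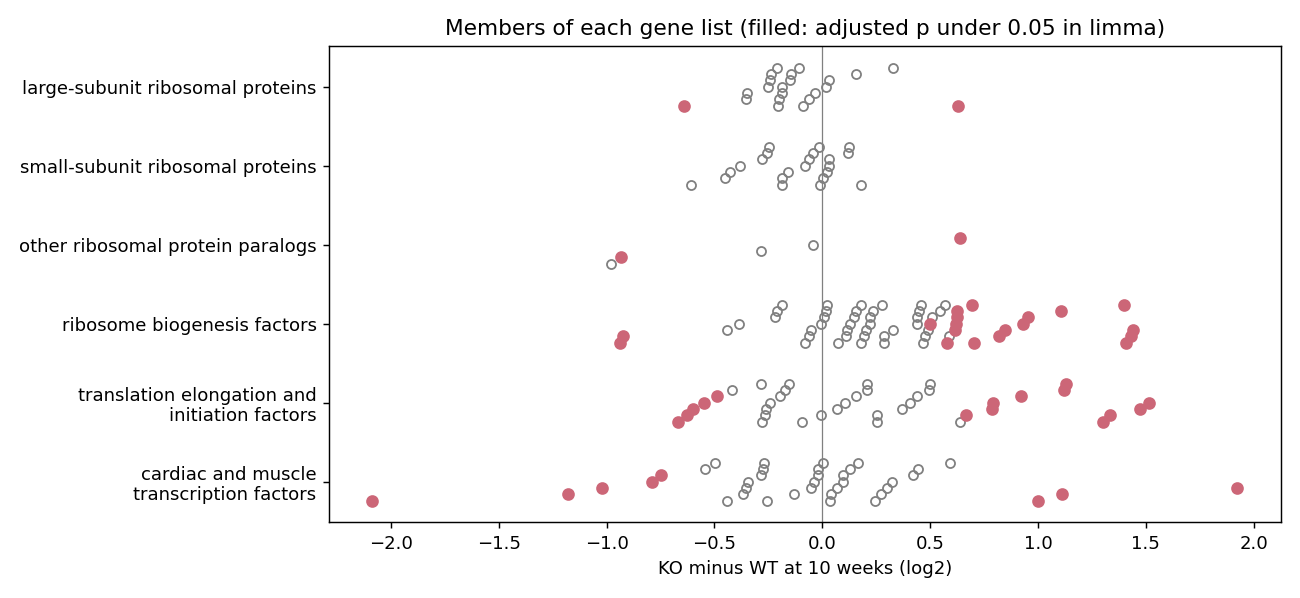
KO minus WT difference at 10 weeks on the log2 scale (x axis) for each measured member of 6 gene lists (y axis), filled where the adjusted p in limma was under 0.05. Filled points of ribosome biogenesis factors lie mostly to the right of 0 (17 higher, 2 lower), those of translation factors on both sides (10 higher, 5 lower), and those of ribosomal proteins are few (1 higher, 1 lower).

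At 4 weeks 0 of the 216 measured genes on the 8 lists of this kind were called in limma, and 10 had an unadjusted p under 0.05. The background at that age was 5 of 18194 genes higher (0.0275%) and 0 lower, with 680 genes at an unadjusted p under 0.05. The 4-week median was 0.04 for biogenesis factors, 0.07 for large-subunit and 0.02 for small-subunit ribosomal proteins.

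Heart muscle uses muscle-type forms of many other proteins, so Rpl3l and Rpl3 were set beside 16 other pairs of a muscle or adult heart form and its relative. Within arrays, the muscle form minus its relative was lower in both 10-week KO arrays than in both WT arrays for 12 pairs, overlapped for 4 and was higher for 0. With 2 arrays per group such separation is common, and 23.5% of single genes were lower in KO without overlap. The shifts of these 16 pairs ran from -2.92 to 0.23 with a median of -0.59, and the Rpl3l pair was at -4.40. The 16 do not cover all measured pairs. Adssl1 with Adss, Hk2 with Hk1, Slc2a4 with Slc2a1 and Ckmt2 with Ckmt1 were left out, and their shifts were not computed. Of these, the muscle form Adssl1 rose by 1.67 and the general form Hk1 by 1.24, so the counts and range hold for the 16 only. The largest shift among the 16 was that of the myosin heavy chains Myh6 and Myh7, at -2.92 ± 0.20. There the adult form Myh6 was at 0.14 ± 0.20 (limma adjusted p = 0.765) and the fetal form Myh7 rose by 3.06 ± 0.12 (1.3e-05). A brighter probe set of several genes, named by a Myh7 accession, read 0.12 (0.856). The actins Actc1 and Acta1 shifted by -2.45 ± 0.22, with the heart form at 0.01 ± 0.14 (0.986) and the skeletal form Acta1 higher by 2.45 ± 0.22 (0.000253).

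For Cox7a1 and Cox8b it was the muscle form that was lower. Cox7a1, a muscle subunit of complex IV, fell by 2.13 ± 0.13 (limma adjusted p = 3.46e-05), while its relative Cox7a2 fell by 0.59 ± 0.13 (0.0143). The call of Cox7a2 was lost without 10-week WT replicate 1 (0.0513) or 10-week KO replicate 2 (0.0952), and with quantile normalization repeated (-0.38, 0.105). Cox8b fell by 1.14 ± 0.15 (0.00177) and Cox8a was at 0.07 ± 0.13 (0.817). Of the third pair of complex IV, named after its values were seen, Cox6a2 was at -0.30 (0.171) and Cox6a1 at 0.44 (0.0506). The smallest shifts were those of the phosphofructokinases Pfkm and Pfkl, at 0.23 ± 0.22, and of the fatty acid carriers Fabp3 and Fabp5, at -0.26 ± 0.44. Both phosphofructokinases were lower, Pfkm by 0.53 ± 0.12 (0.0209) and Pfkl by 0.76 ± 0.19 (0.0289). The call of Pfkl was lost without any 1 array other than 10-week WT replicate 1 (0.0537 to 0.16), and that of Pfkm without either 4-week WT array (0.0525 each) or 10-week KO replicate 1 (0.135), and with quantile normalization repeated (-0.33, 0.0795).

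The elongation factors Eef1a2 and Eef1a1 are the other translation pair of muscle. Eef1a2, the muscle form, was at -0.01 ± 0.17 in KO minus WT at 10 weeks (limma adjusted p = 0.986), and Eef1a1, the general form, rose by 0.67 ± 0.14 (0.0125). The call of Eef1a1 was lost without 10-week KO replicate 1, where the difference was 0.58, and with only the 10-week groups in the fit (adjusted p = 0.0784). Values for the muscle form were below 0 and those for its relative above 0 in 6 of the 16 pairs, and in 0 of them did both pass the test. Of the 16, 6 had a muscle form called lower and 5 had a relative called higher, where 6.89% of all genes were called lower and 5.19% higher.

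**Figure D5:**
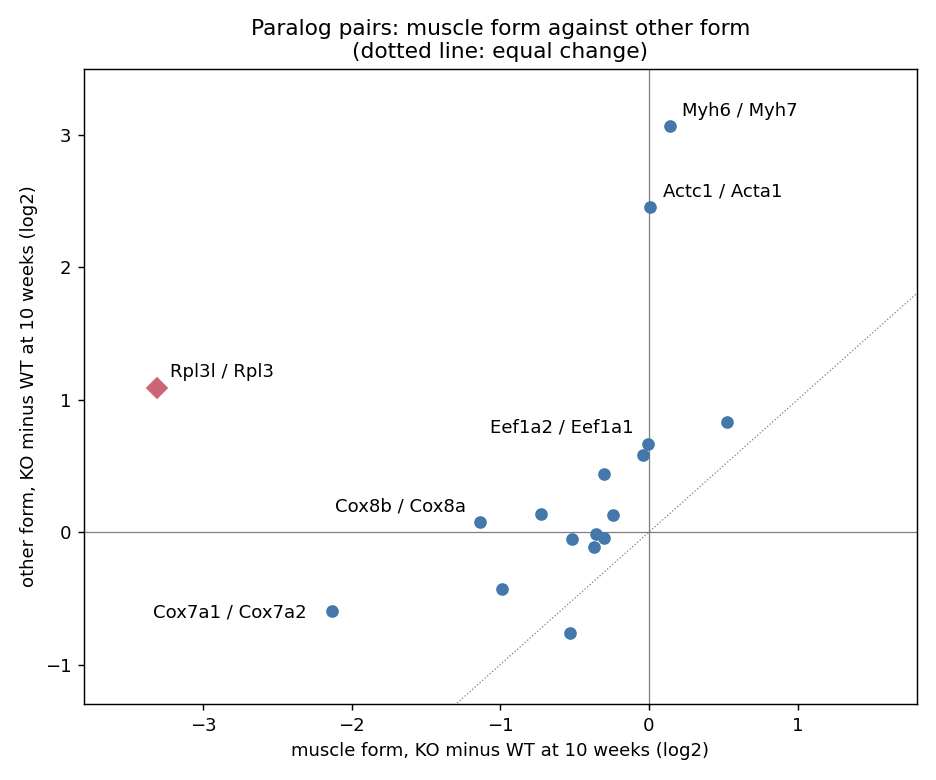
KO minus WT difference at 10 weeks on the log2 scale for the muscle or adult form (x axis) and its relative (y axis) in 17 pairs of genes, with a dotted line where both change equally. Rpl3l and Rpl3 are at -3.31 and 1.09, the myosin and actin pairs lie on the vertical line at 0, and Cox7a1 with Cox7a2 lies below the horizontal line.

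As single genes, 6 of 17 muscle isoforms were lower and 1 higher at 10 weeks, with a median of -0.32, where 6.89% of all genes were lower and 5.19% higher. The muscle enolase Eno3 fell by 1.05 ± 0.12 (limma adjusted p = 0.000712), and the muscle adenylosuccinate synthase Adssl1 was the 1 that rose, by 1.67 ± 0.11 (5.04e-05), while 2 were called higher without 10-week WT replicate 2. Of 16 general isoforms 4 were higher and 2 lower against the same background, with a median of 0.24. Hexokinase Hk1 rose by 1.24 ± 0.23 (0.00724) and alpha-actinin Actn1 by 0.83 ± 0.19 (0.0214). The number of general isoforms higher was 2 without 10-week WT replicate 1 and 1 without either 10-week KO array, but 7 with the mean of each gene's probe sets, and the number lower was 0 without 10-week KO replicate 2. Without these arrays the call of Actn1 was lost (adjusted p = 0.0668, 0.0933 and 0.109), and without 10-week KO replicate 2 that of Hk1 (0.0618).

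Transcription factors of heart and muscle, which set the levels of muscle genes, were called higher in 3 of 38 and lower in 5 of 38 at 10 weeks, with a median of -0.02, against 5.19% and 6.89% of all genes. Hopx, a homeodomain cofactor, fell by 2.09 ± 0.13 (limma adjusted p = 3.46e-05), and Hdac9, a histone deacetylase that binds MEF2 factors, fell by 1.18 ± 0.25 (0.0133). Ankrd1, a stress-responsive partner of the sarcomere, rose by 1.92 ± 0.30 (0.00324) and Tbx20, a T-box factor, by 1.11 ± 0.22 (0.0111). Without 10-week KO replicate 1 the numbers were 1 higher and 2 lower, and Hdac9 (adjusted p = 0.0987) and Tbx20 (0.09) lost their calls. With the mean of its probe sets Hdac9 was at -0.71 (0.0176). Without 10-week WT replicate 2 there were 5 higher.

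Genes next to the pair on their chromosomes were not all lower or higher with them. Of the 8 nearest protein-coding genes of Rpl3l, 4 on each side, 1 was called at 10 weeks, against 12.1% of all genes. This was the adjacent gene Ndufb10, a complex I subunit, which fell from log2 12.06 ± 0.09 in WT to 11.23 ± 0.19 in KO (SD, n = 2 each), by 0.83 ± 0.13 (limma adjusted p = 0.00362). Rps2, beside Ndufb10, was at -0.26 ± 0.11 (0.201), and Msrb1, on the other side of Rpl3l, at 0.34 ± 0.15 (0.194). The remaining neighbours Tbl3, Rnf151, Hs3st6, Meiob and Hagh read between -0.25 and 0.25. Of the 8 neighbours of Rpl3, Cbx6, Apobec3, Cbx7, Pdgfb, Syngr1, Tab1, Mgat3 and Mief1, 0 were called in limma. The largest difference was that of Syngr1, at 0.41 ± 0.12 (0.0592), which passed with quantile normalization repeated (0.55, 0.0176) but was -0.07 (0.844) when sets of shared sequence were dropped.

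The genes whose pattern over the 8 arrays was most like that of Rpl3l were found by Pearson correlation among 2220 genes with a mean log2 of at least 6 and a range of at least 1. Both 10-week KO arrays stood far from the others for Rpl3l and Rpl3, so a high r describes mostly that contrast, and 213 genes had r of at least 0.95 with Rpl3l. The highest were Cox7a1 (r = 0.996), the membrane protein gene Yipf7 (0.995), Hopx (0.994), the carbonic anhydrase Car4 (0.993), the complex I subunit Ndufb8 (0.993) and the ephrin Efnb3 (0.993). Their KO minus WT differences at 10 weeks were -2.13, -2.69, -2.09, -2.24, -0.92 and -1.76. Without probe sets of shared sequence, Ndufb8 read -0.24. The most opposite were Itgbl1, an integrin-like secreted protein (r = -0.998), Efhd2, a calcium-binding protein (-0.993), Tmbim1 (-0.993) and the lysyl oxidase relative Loxl3 (-0.993), with differences of 2.61, 2.20, 1.71 and 1.31. Over the 6 arrays without the 10-week KO hearts, r of the 6 highest genes with Rpl3l was 0.46 to 0.82.

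For Rpl3 the highest were Itgbl1 (r = 0.993), Loxl3 (0.993), Adssl1 (0.992), the proton pump subunit Atp6v1h (0.991), the chitinase-like Chil1 (0.989) and the matricellular Ccn5 (0.988), and 86 genes had r of at least 0.95. The most opposite were Slc25a26, the mitochondrial carrier of S-adenosylmethionine (r = -0.997), Etfbkmt, a methyltransferase of mitochondria (-0.995), Efnb3 (-0.995) and Uros, of heme synthesis (-0.994). Over the 6 arrays r of the 6 highest genes with Rpl3 was 0.75 to 0.96. Itgbl1, Loxl3 and Efnb3 appear for both genes with opposite sign. With the mean of their probe sets the 10-week differences of Atp6v1h, Etfbkmt and Uros were 1.08, -1.31 and -0.69, where single sets gave 2.13, -2.45 and -1.32. On single arrays, Itgbl1 read log2 6.21 and 6.31 in 4-week WT, 6.51 and 6.50 in 4-week KO, 6.25 and 6.34 in 10-week WT and 9.04 and 8.78 in 10-week KO. Like Rpl3, it was a little higher in both 4-week KO hearts than in all 4 WT hearts and much higher in both 10-week KO hearts. Itgbl1 was picked for its correlation with Rpl3 over these same arrays, so this likeness follows from the choice and adds no support.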

How the data were processed

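Total RNA from 8 hearts was extracted with TRIzol and hybridised to Affymetrix arrays, per the labels' protocols. The deposited values are probe set intensities on the linear scale, and the submitters' processing notes name GCOS 1.3 and RMA as the authors' tools. RMA corrects the background, equalises the distributions of the arrays and summarises the probes of each set. Here log2 was taken, 64 control probe sets were left out, and each gene was represented by its probe set with the highest mean. Of 45037 probe sets 34945 name 1 gene, 932 several and 9160 none. Those of several genes were not used, except those of Rpl3. limma 3.58.1 (R 4.3.3) was fitted to all 8 arrays with 1 mean per group (eBayes, 4 residual degrees of freedom), two-sided, with Benjamini-Hochberg adjustment over 18194 genes and a threshold of 0.05. In simulated data for the 10-week comparison with 18194 genes, 98 of 100 genes changed by 2 on the log2 scale were called and 70 of 100 changed by 1, with 9 false calls. The simulated noise was independent between genes and arrays and held no array that stood apart, so these rates may not hold for the real arrays. Lists named the called genes with the largest difference (up to 4), or the 2 with the smallest p; of the pairs, the 4 largest and 2 smallest shifts were named; likeness gave 6 highest and 4 lowest. The members and lists were chosen with earlier results of these data known. The level of the targeted gene is not reported here. With 2 arrays per group, their number limits the precision.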

Additional observations from a re-analysis of the deposited data

Results flagged for a closer look

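Each of the genes below had a KO minus WT difference that itself differed between 10 and 4 weeks in limma (adjusted p under 0.05 over all genes), which held for 2.09% of all genes. Larger at 10 weeks were Myh7 (a difference of differences of 2.67 on the log2 scale, adjusted p = 0.000824), Ankrd1 (1.99, 0.0484), Adssl1 (1.39, 0.00442) and Eif4ebp1 (1.34, 0.0145). Further below 0 at 10 weeks were Cox7a1 (-2.02, 0.00155), Hopx (-1.90, 0.00179), Cox8b (-1.16, 0.0342) and Eno3 (-0.98, 0.023). For each of the 8, litter differs between the ages and cannot be told apart from age, and no processing day is given. Groups of 2 allow no test of an outlying array.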

How the results depend on the processing

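With shared-sequence probe sets left out, the dim probe set stood for Rpl3. It gave KO minus WT of 0.017 at 10 weeks and 0.30 at 4 weeks, and 10 minus 4 weeks of 0.40 in WT and 0.11 in KO. Rpl3l minus Rpl3 was then -3.33, and Rpl3 minus the ribosomal median 0.066 at 10 weeks and 0.34 at 4 weeks. With each probe set taken singly, the bright set read 1.09 and the dim set 0.017 at 10 weeks. With the mean of both probe sets, the values of Rpl3 were 0.55, 0.25, 0.20 and 0.50 in the first order, the balance -3.86 and the distance from the median 0.79. Quantile normalization again gave 1.22, 0.16, 0.045 and 1.11 for Rpl3, and centring on array medians 1.07, 0.18, -0.070 (turned from 0.00081) and 0.82. The replicate numbers are not said to pair mice. Same-numbered arrays deviated together with r of 0.30 at 4 and 0.23 at 10 weeks, and a replicate block gave 2682 calls at 10 weeks and 106 in place of 21 for 10 against 4 weeks in WT.

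Without 1 array, Rpl3l at 10 weeks ranged from -3.51 to -3.11, the balance from -4.61 to -4.19, Rpl3l minus cardiomyocyte markers from -3.62 to -2.84, and Rpl3 minus the median from 1.08 to 1.37. Rpl3l in WT, 10 minus 4 weeks, ranged from -0.21 to 0.19, the latter without 10-week WT replicate 2. The calls at 10 weeks were 2197 with all arrays and 1154 to 3244 without 1, and of listed genes 58 and 30 to 80. At 4 weeks they were 5 and 1 to 11, for the difference between ages 380 and 40 to 1601, and for 10 against 4 weeks 21 and 4 to 2944 in WT and 1910 and 528 to 3033 in KO. The highest counts for WT and for the difference came without 10-week WT replicate 2.

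Other settings gave 3637 (10 weeks), 10 (4 weeks), 44 (WT ages) and 3262 (KO ages) calls over single probe sets, and 954, 13 and 3 for the first 3 with only the compared groups, with 26 listed genes at 10 weeks. Array weights gave 14 at 4 weeks, trend and robust settings 45 for WT ages, and centring 212 for the difference and 12 for WT ages. Pfkl turned to 0.077 (adjusted p = 0.843) without shared-sequence probe sets. Of 29 named genes called at 10 weeks, 16 kept their call in every setting run. With only the 10-week groups in the fit, Rplp2, Rpl4, Rps4l, Eif3a, Eef1a1, Hk1, Actn1, Pfkl, Pfkm and Cox7a2 lost theirs. Rps4l and Pfkm also lost theirs with array weights. The causes of these changes were not tested. Probe sets of several genes named by accession were added as a setting after the data were seen.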
